A study of Caenorhabditis elegans with 6 samples.

Results

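Small sperm proteins of the nematode *Caenorhabditis elegans* include the products of several families of short, similar genes. Of these genes, *msd-4*, *nspd-1*, *ssp-16*, *ssp-19*, *msrp-2*, *msrp-5* and *msrp-6* are described here on arrays of wild-type (wt) worms and of mutants in mRNA decapping. They make up 7 of the 17397 genes with values, and 7 of the 34 protein-coding genes that RefSeq names *msd*, *nspd*, *ssp* or *msrp* followed by a number. The 7 were selected on their values on these same arrays, as sperm genes outside the major sperm protein (*msp*) family that were higher in the mutant. Their difference between the strains is therefore given as a description, with no test.

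Total RNA came from whole worms on day 9 of adulthood, kept at 20 °C with 10 µg/mL FUDR, a drug that stops progeny from growing, on killed OP50 bacteria. The wt group was the N2 strain, and the mutant group was *dcap-1(tm3163)*, a reduction-of-function allele (*dcap-1(rf)*) that had been outcrossed to N2. *dcap-1* encodes the cofactor of the enzyme that removes the 5′ cap of mRNAs. Each group had 3 independently harvested populations of 200 to 300 worms, each hybridized on its own Affymetrix array, and both groups were treated alike. The values are log2 expression values, on which a step of 1 is a doubling of the signal. Array medians ran from 2.18 to 2.24, and any pair of arrays had a Pearson's r of at least 0.99 across genes, which are not independent replicates. *dcap-1* itself fell by 0.77 on the log2 scale in the mutant (standard error 0.08, adjusted p = 0.00469 from limma, lower in 3 of 3 arrays).

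Hermaphrodites of *C. elegans* make sperm as larvae, store it, and then switch to making oocytes for the rest of their life. Nematode sperm crawl without actin, on filaments of major sperm protein, and many small proteins with the same fold accompany it in the cell. *msd* genes encode proteins with a major sperm protein domain, and the *ssp* genes form a sperm-specific family whose member SSP-19 has that fold. *nspd* genes encode group D of the nematode-specific peptides. The study's classification puts all 7 genes among the germline-specific ones and marks each as responding to the loss of P granules, the RNA granules of germ cells. It calls *msd-4*, *ssp-16*, *ssp-19* and *msrp-2* spermatogenic, and it places *nspd-1*, *msrp-5* and *msrp-6* in the class shared with oogenesis. The arrays measure whole worms, so more cells with a transcript and more RNA per cell cannot be told apart.

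The gene with the highest values in the mutant was *msd-4*. It read 2.86, 3.33 and 2.92 on wt replicates 1 to 3 and 5.88, 6.26 and 6.24 on *dcap-1(rf)* replicates 1 to 3. All mutant arrays lay above all wt arrays, and the lowest mutant value exceeded the highest wt value by 2.55. The means were 3.03 ± 0.26 and 6.12 ± 0.21 (SD, n = 3 each), a difference of 3.09 (standard error 0.15), which is an 8.52-fold higher signal. *msd-4* thus moved from percentile 61.4 of all genes by wt mean to percentile 89.0 by mutant mean.

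*nspd-1* differed about as much, but from a lower start. Its values were 1.52, 1.70 and 1.47 in wt and 4.79, 4.30 and 5.08 in *dcap-1(rf)*. The mutant arrays were again all above the wt arrays, and they were more spread than those of any other of the 7 genes. The wt mean of 1.57 ± 0.12 lay at percentile 33.3 of all genes, and the mutant mean of 4.73 ± 0.40 (SD, n = 3 each) at percentile 76.1. The difference was 3.16 (standard error 0.19), or 8.94-fold. *nspd* genes are copies of similar length, 213 to 222 bases for the 10 protein-coding ones in RefSeq. *msd-1*, *msd-2*, *msd-3* and *msd-4* each span 330 bases, as do *ssp-16* and *ssp-19*. Signal shared between copies was not separated here for any of these families.

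The *ssp* genes were represented by a large and a small difference. *ssp-16* read 2.02, 2.06 and 1.79 in wt and 3.75, 3.27 and 3.70 in the mutant, a difference of 1.62 (standard error 0.14). *ssp-19* read 1.45, 1.54 and 1.57 in wt and 2.07, 2.04 and 2.15 in the mutant, a difference of 0.57 (standard error 0.07). Both genes had groups that did not overlap, with gaps of 1.21 and 0.47 between the nearest arrays. *ssp-19* had the smallest difference of the 7, a 1.48-fold higher signal, and also the smallest spread, with an SD of 0.06 within the strains against 0.29 for *nspd-1*. Measured in its own within-strain SD, the difference of *ssp-19* (9.69 SDs) was close to that of *nspd-1* (10.8 SDs). These SDs rest on 3 arrays in each strain, so the ratio is a rough description and not a test.

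The *msrp* genes lay between these extremes. *msrp-2* had wt values of 2.72, 2.70 and 2.65 and mutant values of 4.04, 4.33 and 4.23. For *msrp-6* they were 1.97, 1.72 and 1.58 in wt and 2.97, 3.05 and 2.95 in the mutant, and for *msrp-5* 1.61, 1.74 and 1.47 in wt and 2.58, 2.68 and 2.73 in the mutant. In each of these genes the mutant arrays stood clear of the wt arrays. The differences were 1.51 (standard error 0.09), 1.23 (standard error 0.11) and 1.05 (standard error 0.09), in that order, or 2.85-fold, 2.35-fold and 2.08-fold. *msrp-2* had the tightest wt arrays of the 7 genes, with an SD of 0.03.

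**Figure D1:**
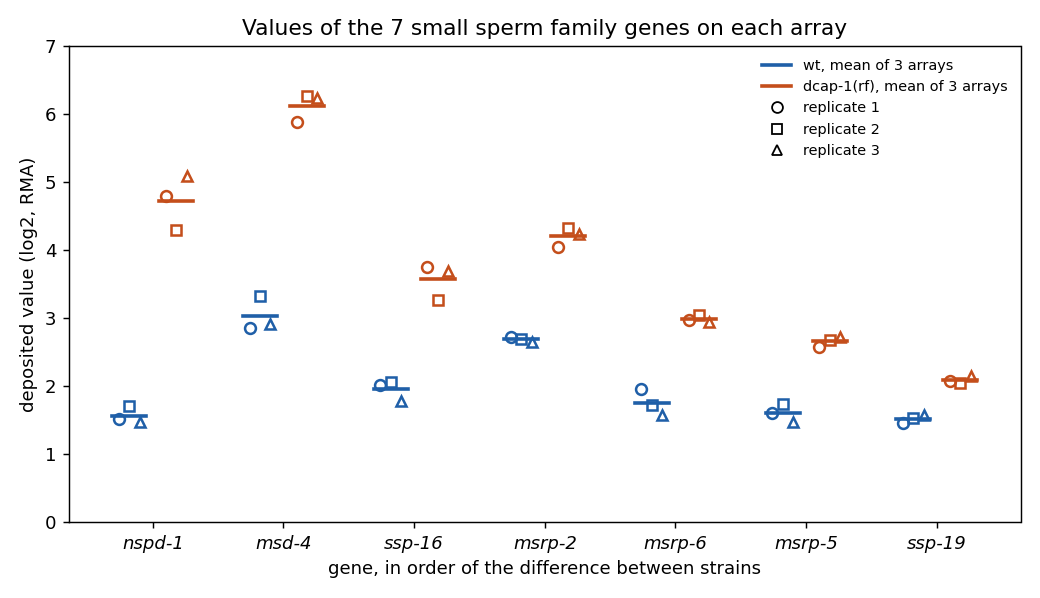
Deposited log2 values of the 7 genes on every array, with wt in blue, *dcap-1(rf)* in orange, symbols for replicates and lines for the mean of 3 arrays. In every gene the 3 mutant arrays lie above the 3 wt arrays, with the nearest arrays 0.47 apart for *ssp-19* and 2.60 apart for *nspd-1*.

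In order of the difference the genes were *nspd-1*, *msd-4*, *ssp-16*, *msrp-2*, *msrp-6*, *msrp-5* and *ssp-19*. Gaps between neighbours in this order are given beside their combined standard error, which ignores that both genes were read on the same arrays. *nspd-1* and *msd-4* were 0.07 apart with a combined standard error of 0.24, *ssp-16* and *msrp-2* 0.10 apart with 0.17, and *msrp-6* and *msrp-5* 0.18 apart with 0.14, so that their order is not settled by 3 arrays. *msd-4* and *ssp-16* were 1.47 apart with 0.21, *msrp-5* and *ssp-19* 0.49 apart with 0.12, and *msrp-2* and *msrp-6* 0.28 apart with 0.14. The 7 were picked on these same differences, so the gaps are a description and not a test. The median difference of the 7 was 1.51, beside a median of -0.02 over the 13047 genes tested. Over the single arrays, the median of the 7 relative to the wt mean was 1.35, 1.31 and 1.54 on the mutant replicates, and between -0.12 and 0.10 on the wt replicates. All 7 genes had groups that did not overlap, with the mutant higher. Over all genes tested 8.93% did, and since the genes were picked for being higher nothing is read from that count.

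All 7 genes passed the filter on low averages, and none had a wt mean under the average of 1.33 at which genes were removed, so that none passed only through its mutant values. Their wt means nevertheless lay low, from percentile 31.7 (*ssp-19*) to 61.4 (*msd-4*), and *ssp-16*, *msrp-6*, *msrp-5*, *nspd-1* and *ssp-19* were below the median of every array in wt. The deposited values carry no detection calls, so whether these transcripts were above background in wt was not known. In the mutant all but *ssp-19* stood above the median, at percentiles from 56.9 (*msrp-5*) to 89.0 (*msd-4*). *ssp-19* reached percentile 47.8.

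Among the mutant arrays the 7 genes did not share their lowest array. There *nspd-1* and *ssp-16* were both lowest on replicate 2, at -0.43 and -0.31 from their mutant means. *msd-4* and *msrp-2* were instead lowest on replicate 1, at -0.25 and -0.16. *ssp-19* was lowest on replicate 2, *msrp-5* on replicate 1 and *msrp-6* on replicate 3, each close to its mutant mean. Among the wt arrays most of the genes shared theirs, as replicate 3 held the lowest value of 5 of the 7 and replicate 2 the highest of 4. When arrays were left out one at a time, the difference of *nspd-1* stayed between 2.98 and 3.37, and that of *ssp-19* between 0.53 and 0.59. *nspd-1* was the most variable, at percentile 96.1 of all genes by its within-strain SD, and *ssp-19* the least, at percentile 12.2.

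**Figure D2:**
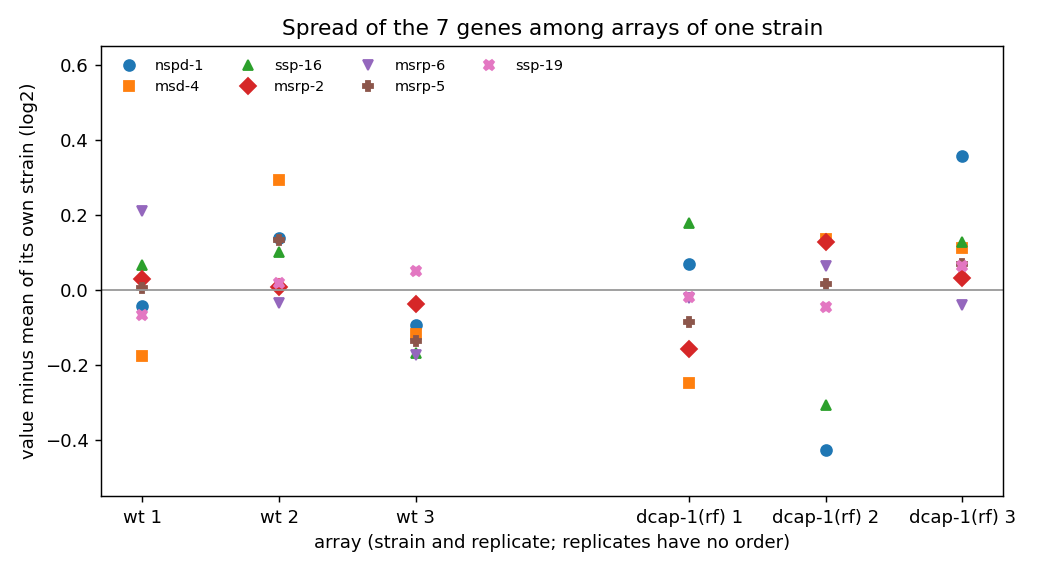
Value of each of the 7 genes on every array minus the mean of its own strain, on the log2 scale. Replicate 2 of *dcap-1(rf)* is the lowest mutant array for *nspd-1* and *ssp-16*, while replicate 1 is the lowest for *msd-4* and *msrp-2*.

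The rest of the 4 families could be read only in part, because gene names were available for 1994 of the 17397 genes. The 1664 named genes outside the study's own list of differential genes all had a positive difference, of at least 0.15. A named family gene outside that list was therefore bound to be higher, and family counts are descriptions. Values were found by name for 15 of the 34 protein-coding family genes, which are 1 of 4 *msd* genes, 3 of 10 *nspd* genes, 6 of 13 *ssp* genes and 5 of 7 *msrp* genes. The other 19, *msd-1*, *msd-2* and *msd-3* among them, had no name here and were not analysed. Every gene on the study's list has a name, so none of the 19 is on that list. Counts among the named family genes therefore cannot be extended to all 34. At an adjusted p under 0.05 from limma, 5 of the 8 named family genes outside the 7 were called higher and 0 lower. Over all genes tested, 1.46% were called higher and 0.161% lower. Among the 1991 named genes tested, which are largely those that were higher, 9.34% were called higher. At an unadjusted p under 0.05 it was 7 of the 8, beside 51.7% of the named genes and 13.8% of all genes tested. The median difference of the 8 was 0.83, and that of all named genes was 0.27. With the 7 genes included, 12 of 15 were called higher, a count that the choice of the 7 in part fixes.

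Both other named *nspd* genes were higher in *dcap-1(rf)*. *nspd-2* read 1.64, 0.93 and 1.31 in wt and 3.57, 4.85 and 4.51 in the mutant, a difference of 3.01 (standard error 0.32, adjusted p = 0.00469 from limma). *nspd-7* read 1.29, 1.24 and 1.20 in wt and 3.22, 2.86 and 2.85 in the mutant, a difference of 1.73 (standard error 0.11, adjusted p = 5.19e-04 from limma). The *nspd* genes did not share their best array. *nspd-2* was lowest on mutant replicate 1 and *nspd-1* on mutant replicate 2, and *nspd-7* was highest on mutant replicate 1. Both *nspd-2* and *nspd-7* had wt means under the average at which genes were removed, so they entered the test only through their mutant values. Without this pair, 3 of the 6 other family genes were called higher. In the *ssp* family *ssp-10* differed by 1.07 (adjusted p = 0.00871 from limma) and *ssp-35* by 0.79 (adjusted p = 0.00230 from limma), with all mutant arrays above all wt arrays. *ssp-34* had a difference of 0.87 that did not pass the test (adjusted p = 0.0655 from limma), with wt values spread from 1.88 to 2.61. Its mutant arrays too were all above its wt arrays, by at least 0.37. *ssp-31* had a difference of 0.30 (adjusted p = 0.522 from limma), and its mutant values, from 1.75 to 1.87, lay within the range of its wt values, from 1.11 to 1.92. In the *msrp* family *msrp-1* differed by 0.69 (adjusted p = 0.0123 from limma) and *msrp-3* by 0.30 (adjusted p = 0.255 from limma). Both had all mutant arrays above all wt arrays, so this separation was not limited to called genes. With an array left out in turn, *ssp-10* was called in 4 of the 6 fits and *msrp-1* in 3, and *nspd-2*, *nspd-7* and *ssp-35* in 6. *ssp-10* lost its call without wt replicate 1 and without wt replicate 2 (adjusted p up to 0.0618 from limma), and *msrp-1* without wt replicate 2, wt replicate 3 or *dcap-1(rf)* replicate 2 (adjusted p up to 0.0823 from limma).

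**Figure D3:**
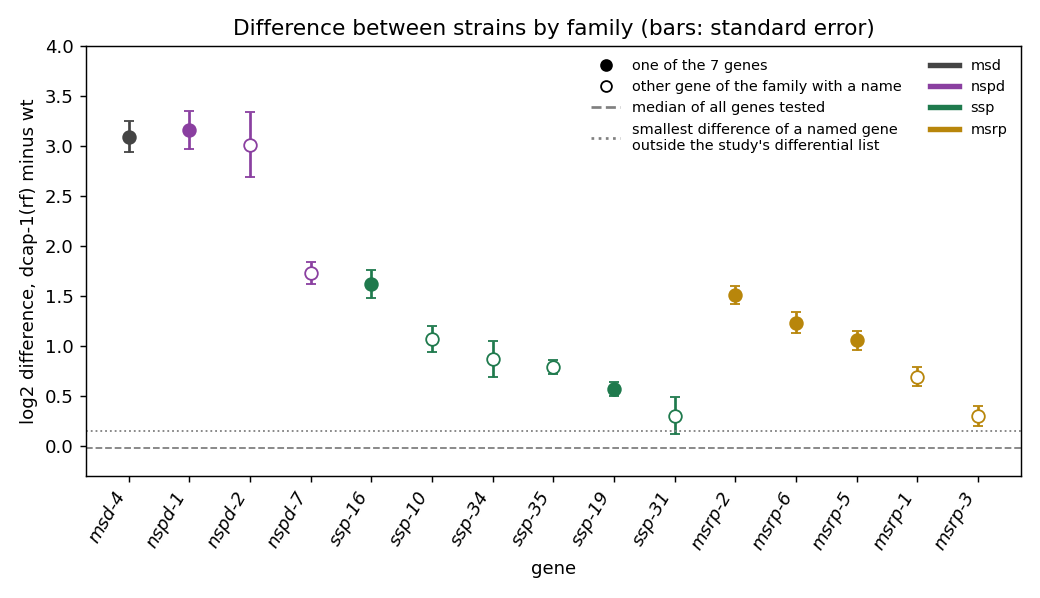
Difference between the strains on the log2 scale (mutant minus wt, bars are standard errors) for the 15 family genes with a name, by family. Filled points are the 7 genes, and open points the others, which include *nspd-2* at 3.01 and, at the low end, *ssp-31* and *msrp-3* at 0.30 each. The dashed line is the median of all genes tested, -0.02, and the dotted line the smallest difference of a named gene outside the study's list, 0.15.

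Of the 34 protein-coding family genes, 20 lay within 20 kb of another one, among them 6 of the 7 genes, and whether this departs from other genes was not tested. On chromosome I, *msrp-2* (6087430 to 6087729 of WBcel235), *nspd-1* (6097579 to 6097791) and *ssp-16* (6102067 to 6102396) sat within 14967 bases, a stretch with 8 protein-coding genes. On chromosome II, *msrp-5* (2616934 to 2617338) and *msrp-6* (2619448 to 2619720) were 2109 bases apart with no protein-coding gene between them. *msd-4* lay on chromosome III (4868414 to 4868743) and *ssp-19* on chromosome I (2562668 to 2562997). The 7 genes span 213 to 405 bases, where the median protein-coding gene of RefSeq spans 2005. Outside the 7, *nspd-2* and *ssp-10* were 6429 bases apart on chromosome IV.

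The named genes next to them gave values that did not enter the choice of the 7. *T27A3.5* lies between *nspd-1* and *ssp-16*, 277 bases from the latter. It went from 2.33 ± 0.23 to 2.89 ± 0.22 (SD, n = 3 each), a difference of 0.55 that did not pass the test (adjusted p = 0.151 from limma). *ZK484.7*, between *msrp-2* and *nspd-1* and 1000 bases from the latter, had a difference of 0.26 (adjusted p = 0.332 from limma), and *haf-9*, a half-transporter gene of the ABC class 1472 bases from *msrp-2*, one of 0.22 (adjusted p = 0.544 from limma). These 3 genes were not called, and 2 of them lie between genes with differences of 1.51 to 3.16. *ZK484.6*, *oaz-1* and *spch-3* also lie between *msrp-2* and *ssp-16*, had no value by name and could not be compared. The named gene nearest to *msd-4*, *gipc-1*, was called higher, from 2.70 ± 0.24 to 4.12 ± 0.33 (SD, n = 3 each), a difference of 1.42 (adjusted p = 0.0105 from limma) at 2034 bases, with 1 gene without a value by name between them. *gipc-1* lost its call without wt replicate 2 (adjusted p = 0.0640 from limma). On the other side of *msd-4*, *fkh-5*, 21805 bases away, differed by 0.20 (adjusted p = 0.474 from limma). *T09B4.8*, 62322 bases beyond *ssp-16*, differed by 0.47 (adjusted p = 0.0610 from limma). The more distant *T05A8.3* (0.16), *fbxc-25* (0.26) and *ugt-31* (0.45) were not called either. *msrp-1*, 129111 bases from *ssp-19*, was called, as given above. Around *msrp-5* and *msrp-6* no other gene within 20 kb had a name here, and around *ssp-19* none did. Only the genes with names were compared, which are those that were higher or on the study's list.

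**Figure D4:**
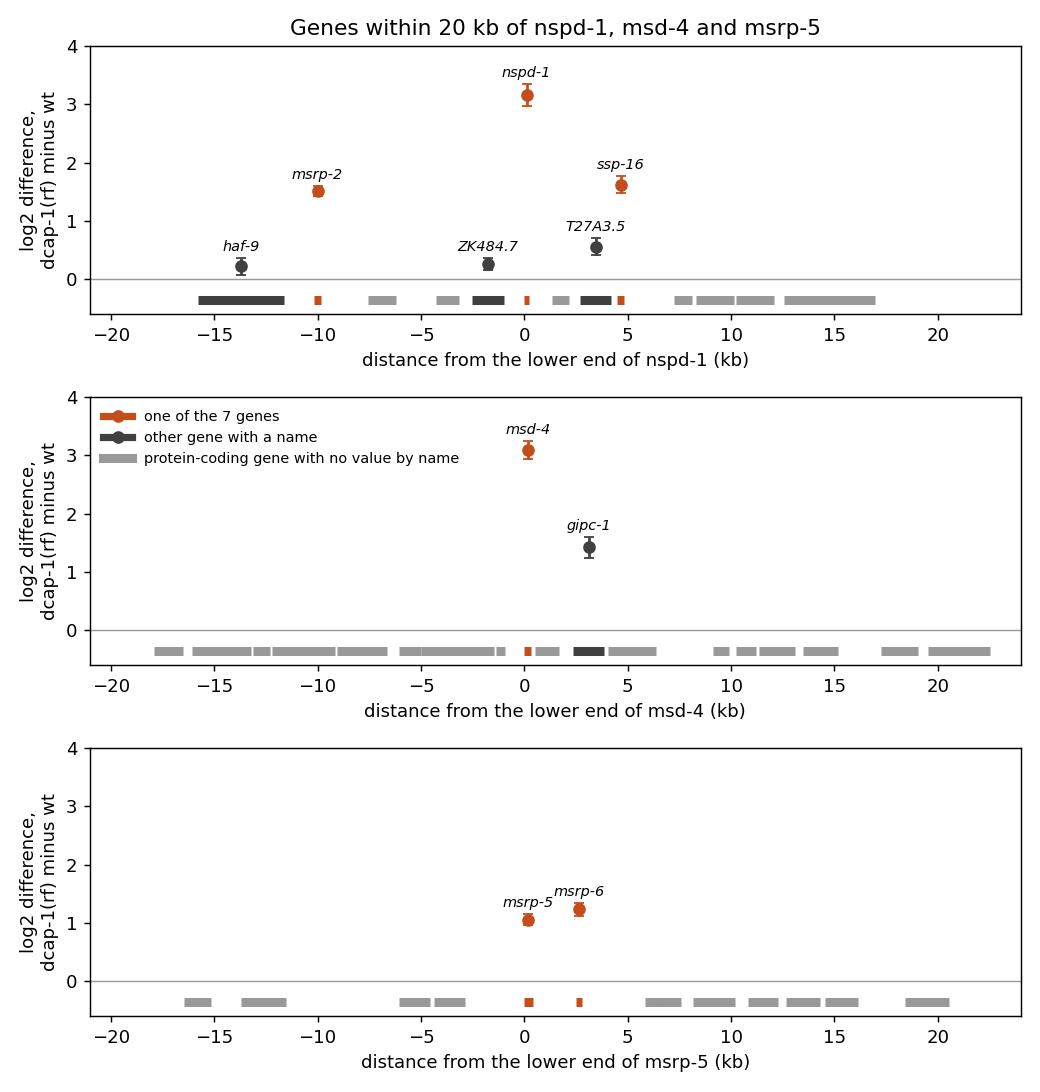
Difference between the strains (log2, bars are standard errors) of protein-coding genes within 20 kb of *nspd-1*, *msd-4* and *msrp-5*, against the distance from the lower end of that gene in kb. Blocks under each axis are genes, orange for the 7, black for others with a name and grey for those without a value by name; *T27A3.5* at 0.55 and *ZK484.7* at 0.26 lie between *msrp-2*, *nspd-1* and *ssp-16* at 1.51 to 3.16.

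Other sperm gene groups were read from lists of names, again only for genes that have a name here. Other nematode-specific peptide groups were read in the same way, and whether they belong to sperm was not examined. Every gene on the study's list of differential genes has a name, so named genes include more called ones than the rest. Of the named genes tested 9.34% were called higher, beside 1.46% of all genes tested. The counts below do not extend to the listed genes without a name. Both named *msp* genes, which encode the filament protein itself, were called higher, *msp-50* with a difference of 3.48 and *msp-76* with 3.53. Of 11 genes for sperm chromatin and related sperm-specific products, 6 had names and all 6 were called higher, with a median of 0.90. One of them, *ssq-3*, had a wt mean under the average at which genes were removed and was tested only through its mutant values, which leaves 5 of 5. Among them *spch-1*, a sperm chromatin protein, differed by 1.37 (adjusted p = 0.00469 from limma) and *smz-1* by 0.74 (adjusted p = 0.00522 from limma). *smz-2*, *ssq-1* and *ssq-2* were called in 0, 2 and 2 of the 6 fits with an array left out, and *ssq-1* and *ssq-2* lost their calls without any one wt array and without *dcap-1(rf)* replicate 2 (adjusted p up to 0.189 and 0.126 from limma). Of 48 genes of the nematode-specific peptide groups A, B, C and E, 3 had names; *nspe-7* (2.60) and *nspa-9* (1.43) were called higher and *nspe-1* (0.83) was not. *nspa-9* lost its call without wt replicate 2 (adjusted p = 0.0552 from limma).

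Of 29 listed genes for sperm maturation and function, 5 had names, with a median difference of 0.25. Of these, *spe-46* alone was called higher (0.80, adjusted p = 0.00962 from limma), and not without wt replicate 2 (adjusted p = 0.0700 from limma). The others were *spe-5*, a proton pump subunit (0.34, adjusted p = 0.0598 from limma), *spe-11*, a sperm factor needed by the embryo (0.25), *try-5*, a protease of male seminal fluid (0.23), and *spe-4*, a presenilin of the spermatocyte (0.18). Of 14 genes that direct sperm fate or sperm gene expression, 5 had names and 0 were called by limma in either direction, while *alg-3*, *alg-4* and *fog-1* (3 of 5) had an unadjusted p under 0.05, beside 51.7% of all named genes tested. *fog-1* and *fog-3*, which commit germ cells to sperm, had differences of 0.33 and 0.45, and *spe-44*, a transcription factor for sperm genes, one of 0.27. *alg-3* and *alg-4*, Argonautes of the sperm-forming germline, had 0.70 (adjusted p = 0.0714 from limma) and 0.24. The differences of the 7 small sperm genes, from 0.57 to 3.16, were not tested against those of these lists, nor were the lists tested against each other.

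Among markers of other cells, 1 of 12 oocyte genes had a name, *egg-2*, an oocyte surface receptor for sperm, with 8.17 ± 0.03 in wt and 7.92 ± 0.05 in *dcap-1(rf)* (SD, n = 3 each; adjusted p = 0.157 from limma). *vit-3*, a yolk protein gene of the intestine, had a mean of 10.19 in wt and a difference of -0.35 (adjusted p = 0.114 from limma), while *elt-2*, a transcription factor of the intestine, had a difference of 0.20 (adjusted p = 0.293 from limma) with all mutant arrays above all wt arrays. The 2 neuron genes *ric-19* and *snb-1* had differences of 0.45 and 0.16, also without overlap. The 3 muscle genes *unc-54*, *myo-3* and *unc-15* differed by 0.21 to 0.29, and *col-19*, a collagen of the adult cuticle, by 0.62 (adjusted p = 0.166 from limma). All mutant arrays lay above all wt arrays for *col-19* too, and below all wt arrays for *egg-2* and *vit-3*. Such separation is common here, as 950 of the 1994 named genes had all mutant arrays above all wt arrays. Of the 9 markers with a name 0 were called by limma, and 5 had an unadjusted p under 0.05, again beside 51.7% of all named genes tested. None of the 12 general germline markers and none of the 10 markers of male somatic cells had a name here, so the amount of germline and the presence of males in the samples were not analysed. The part of cell makeup in the differences of the 7 genes was not tested.

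The genes most like the 7 in pattern were sought over all 6 arrays, by Pearson's r with the mean of the 7 genes, each centred on its own mean. Since the arrays form 2 separate groups, r mostly reflects the difference between the strains and is given only as a measure of likeness. The 5 genes with the highest r were *Y38C1AA.7* (0.998), *C04F12.7* (0.997), *R07E5.15* (0.997), *Y69E1A.2* (0.996) and *msp-50* (0.995). Each of the 7 genes had an r between 0.977 (*msrp-6*) and 0.993 (*msrp-5*) with the mean of the other 6. *Y38C1AA.7* went from 2.20 ± 0.04 to 4.38 ± 0.12 (SD, n = 3 each), a difference of 2.18, *R07E5.15* from 4.25 ± 0.10 to 5.45 ± 0.09, one of 1.20, and the study classes both as spermatogenic. *C04F12.7* (1.76) and *Y69E1A.2* (1.36) belong to the study's class of genes found in both soma and germline. In all, 11 of 17390 other genes had an r above 0.99 and 150 above 0.95.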

How the data were processed

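The authors deposited log2 expression values, 1 for each gene on each array, which RMA had computed at its default settings from a gene-level BrainArray chip description, after quality control of the arrays. The submitters' processing notes name R 3.3.0 and WBcel235. The methods also name surrogate variable analysis, and whether the deposited log2 values carry it is not stated. The values were used as deposited.

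The strain comparison used limma 3.58.1 (R 4.3.3) and followed the methods, without surrogate variables, whose number they do not give: after the linear fit, genes in the lowest 25% by average were dropped, the variances of the other 13047 were moderated by eBayes, and Benjamini-Hochberg adjusted p-values were called under 0.05. Strain was the only term. Standard errors are the moderated ones. Precision is limited by having 3 arrays in a group. The fit was tested on simulated data drawn with each gene's own spread, where 98 of 100 genes changed by 2 and 81 of 100 changed by 1 on the log2 scale were called. The changed genes had averages more than 1 above that at the filter, so recovery at lower averages, such as that of *ssp-19*, was not tested.

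Names were taken from the study's supplementary lists, matched to the files by WormBase identifier for 1994 genes, and positions from RefSeq's table of WBcel235 by sequence name, for 1993 of them. The members and lists were chosen with earlier results of these data known. Named genes are the 7, all family genes with a name, the nearest named neighbours, and the 5 most alike genes. Also named are the called genes of each gene list, or those with the largest difference. Further list genes were named after their values were seen. No p-value is given for the 7 genes, and no set test was run. Alternatives were other filters, a trended robust prior, 1 or 2 residual components as covariates, median centring, quantile normalization, array weights, a replicate block, and leaving out each array. Tables and plots used Python 3.11.15, pandas 2.3.3, numpy 2.4.6 and matplotlib 3.10.9.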

Additional observations from a re-analysis of the deposited data

How the results depend on the processing

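For the 7 genes, 84 differences were recomputed (centring, quantile normalization, weights, block, 1 or 2 residual components, and each array left out); 0 changed sign and 84 moved by less than the SD between replicates. By construction neither the residual components nor the replicate block can move these differences. With so few arrays in a group, leaving an array out cannot move a difference by as much as this SD, which is pooled within strains. Only centring, quantile normalization and weights could have done so. Leaving out or weighting arrays also cannot change a sign where the groups do not overlap, as in all 7 genes. Most of the 84 outcomes were therefore fixed in advance. The median difference of the 7 stayed between 1.48 and 1.52 with all arrays and between 1.45 and 1.53 with an array left out. Of the 15 named family genes, 8 to 13 were called with all arrays; the 8 arose with removal of the lowest 50% of genes, which took out 6 of the 15. With an array left out 9 to 12 were called. All these counts include the 7 genes, which were picked on this same difference, so they are descriptions and nothing is read from them.

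Over all genes, 190 were called higher and 21 lower. Higher calls numbered 327 with 2 residual components as covariates. Lower calls numbered 54 with 1 component, 84 with 2, 33 with the replicate block, 35 with weighted arrays, 34 with quantile-normalized values and 35 after median centring. With an array left out, higher calls ranged from 75 (without wt replicate 2) to 280 (without *dcap-1(rf)* replicate 3), and came to 85 and 109 when wt replicate 1 or *dcap-1(rf)* replicate 2 was dropped, and lower calls from 9 (without wt replicate 1 or wt replicate 2) to 26.

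Arrays with the same replicate number correlated in their deviations at r = 0.05, 0.08 and 0.12 across genes, so the pairing was not taken as given, although each array correlated best with its own number. With the replicate block 13 of the 15 family genes were called and the higher calls numbered 213; *ssp-34* was then called, as it was with a trended robust prior, with residual components and after centring. The cause of these changes was not tested. With no detection calls, the size of a difference from a low wt value, as for *nspd-1* and *ssp-19*, is less certain.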
